A study of Danio rerio with 21 samples.

Results

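The 10 genes described here belong to testis differentiation and androgen synthesis in zebrafish. They are the transcription factor genes dmrt1, sox9a and nr5a1a, the growth factor genes amh and gsdf, the androgen receptor gene ar, the steroid synthesis genes star, cyp17a1 and cyp11c1, and the hormone gene insl3. They were picked out by their NCBI Gene numbers, with earlier results of these data known, and all 10 were found among the 26225 genes of the table.

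Young zebrafish of both sexes first form an ovary-like gonad, and in future males its oocytes are lost and a testis takes its place. In the testis, Sertoli cells nurse the germ cells and Leydig cells make steroids. Androgen synthesis starts with the transfer of cholesterol into mitochondria by the star protein. It goes on through the cytochrome P450 enzyme of cyp17a1, and the enzyme of cyp11c1 adds the 11-hydroxyl group from which fish make 11-ketotestosterone, their main androgen. Steroids are also made in the ovary and in the interrenal gland, the fish counterpart of the adrenal, so the steroid genes are not limited to the testis.

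RNA came from fish labelled as whole AB strain zebrafish, with no genetic change. The heated groups T35D, T45D and T60D were kept at 35 °C from 25 to 35 days post-fertilization (dpf), then returned to 28 °C, and sampled at 35, 45 and 60 dpf. Fish of the control groups (C25D, C35D, C45D, C60D) stayed at 28 °C and were sampled at 25, 35, 45 and 60 dpf. Each of the 7 groups had 3 libraries, named here by group and replicate number, for 21 in all. The fish came from 1 family. The study's methods call the 3 libraries of a group independent biological replicates and state a range for the fish collected, without saying how many entered each library or of which sex they were. In RNA of whole bodies, fewer cells of a type and less RNA per cell cannot be told apart.

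The genes dmrt1 and amh were also chosen for quantitative PCR in the study. Their primers are shown because they mark the pieces of these transcripts that were measured by another method, which is not analysed here. All letters are in lower case, since no base is singled out.
dmrt1 forward primer: tgcccaggtggcgttacgg
dmrt1 reverse primer: cgggtgatggcggtcctgag
amh forward primer: acaacccgaaggtcaacccgc
amh reverse primer: gtggcatgttggtcagttggctg
The dmrt1 primers were 19 and 20 bases long, with 13 and 14 G or C bases. The amh primers were 21 and 23 bases long, and each held 13 G or C bases.

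Totals of expected counts ran from 11875455 to 16471171 per library, with a median of 13616146. Several libraries stood apart. In C45D-3, the counts of 14675 genes lay close to a mix of 49.3% C45D-1 and 50.7% C45D-2, with a scatter of 1.29 times sampling noise. In C60D-3, the counts of 12774 genes lay close to a mix of 50.5% C60D-1 and 49.5% C60D-2, with a scatter of 1.33 times sampling noise. In the other 19 libraries, the same scatter around the best mix of their 2 group mates was 3.89 to 152 times sampling noise. The summed level of 8 liver genes was 6.48 to 18.8 FPKM in C60D, 21 in T45D-3 and 17.4 in T60D-2, while the other 16 libraries had 3909 FPKM or more. The summed level of 9 eye lens genes was under 6 FPKM in all 3 C60D libraries, C35D-1, T45D-1, T45D-3 and T60D-2. These libraries therefore went against the label of whole fish. The study's methods name the whole body as the source of RNA. They also give an approximate weight of tissue that was ground, without saying how it was taken. The tests of the 10 genes that used C45D-3 and C60D-3 were run again without them, and the values that decide a call are given both ways.

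**Figure D1:**
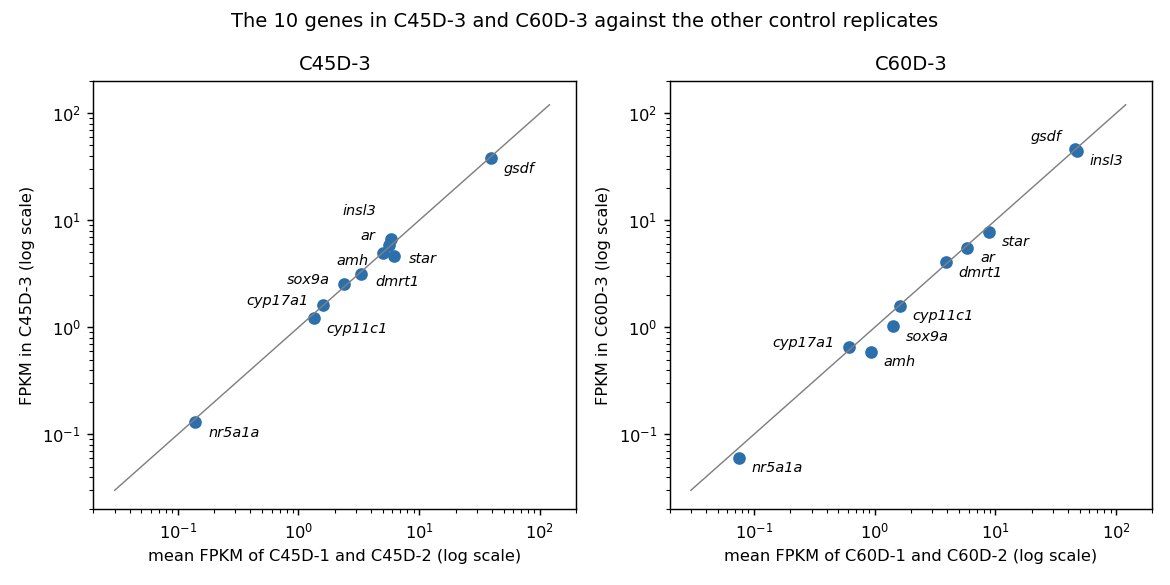
Level of the 10 genes (FPKM, log scales) in C45D-3 and C60D-3 against the mean of replicates 1 and 2 of the same control group; the line marks equal values. In C45D-3 the points lie between 0.747 and 1.15 times that mean, and in C60D-3 between 0.638 and 1.08 times.

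Of the 10 genes, 9 had a level in C45D-3 between those of C45D-1 and C45D-2, the exception being star. Of the 14675 genes of the mix fit, 73.85% lay between in this way. In C60D-3, 9 of the 10 were between C60D-1 and C60D-2, the exception being amh, beside 87.78% of the 12774 genes of its fit. The spread within these 2 control groups is therefore mainly the distance between replicates 1 and 2.

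Levels are given in FPKM, reads scaled to gene length and library size, which allows genes to be compared. By the median over the 21 libraries, gsdf was highest at 22.6 FPKM. It was followed by star at 3.78, ar at 3.16, sox9a at 1.55, cyp17a1 at 0.99, dmrt1 at 0.61, cyp11c1 at 0.55, amh at 0.32, insl3 at 0.29 and nr5a1a at 0.10 FPKM. The ranges of all neighbouring genes in this order overlapped over the 21 libraries. The ratio of highest to lowest was smallest for gsdf, at 11 to 55.3 FPKM, and reached 94.6 FPKM for insl3, which was listed at 0 in 3 libraries. A gene with 3 counts or fewer is near the limit of what these libraries can measure, and 3 counts were worth 0.182 to 0.253 CPM (counts scaled to library size alone). insl3 had 3 counts or fewer in 12 of the 21 libraries, and nr5a1a in 13.

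**Figure D2:**
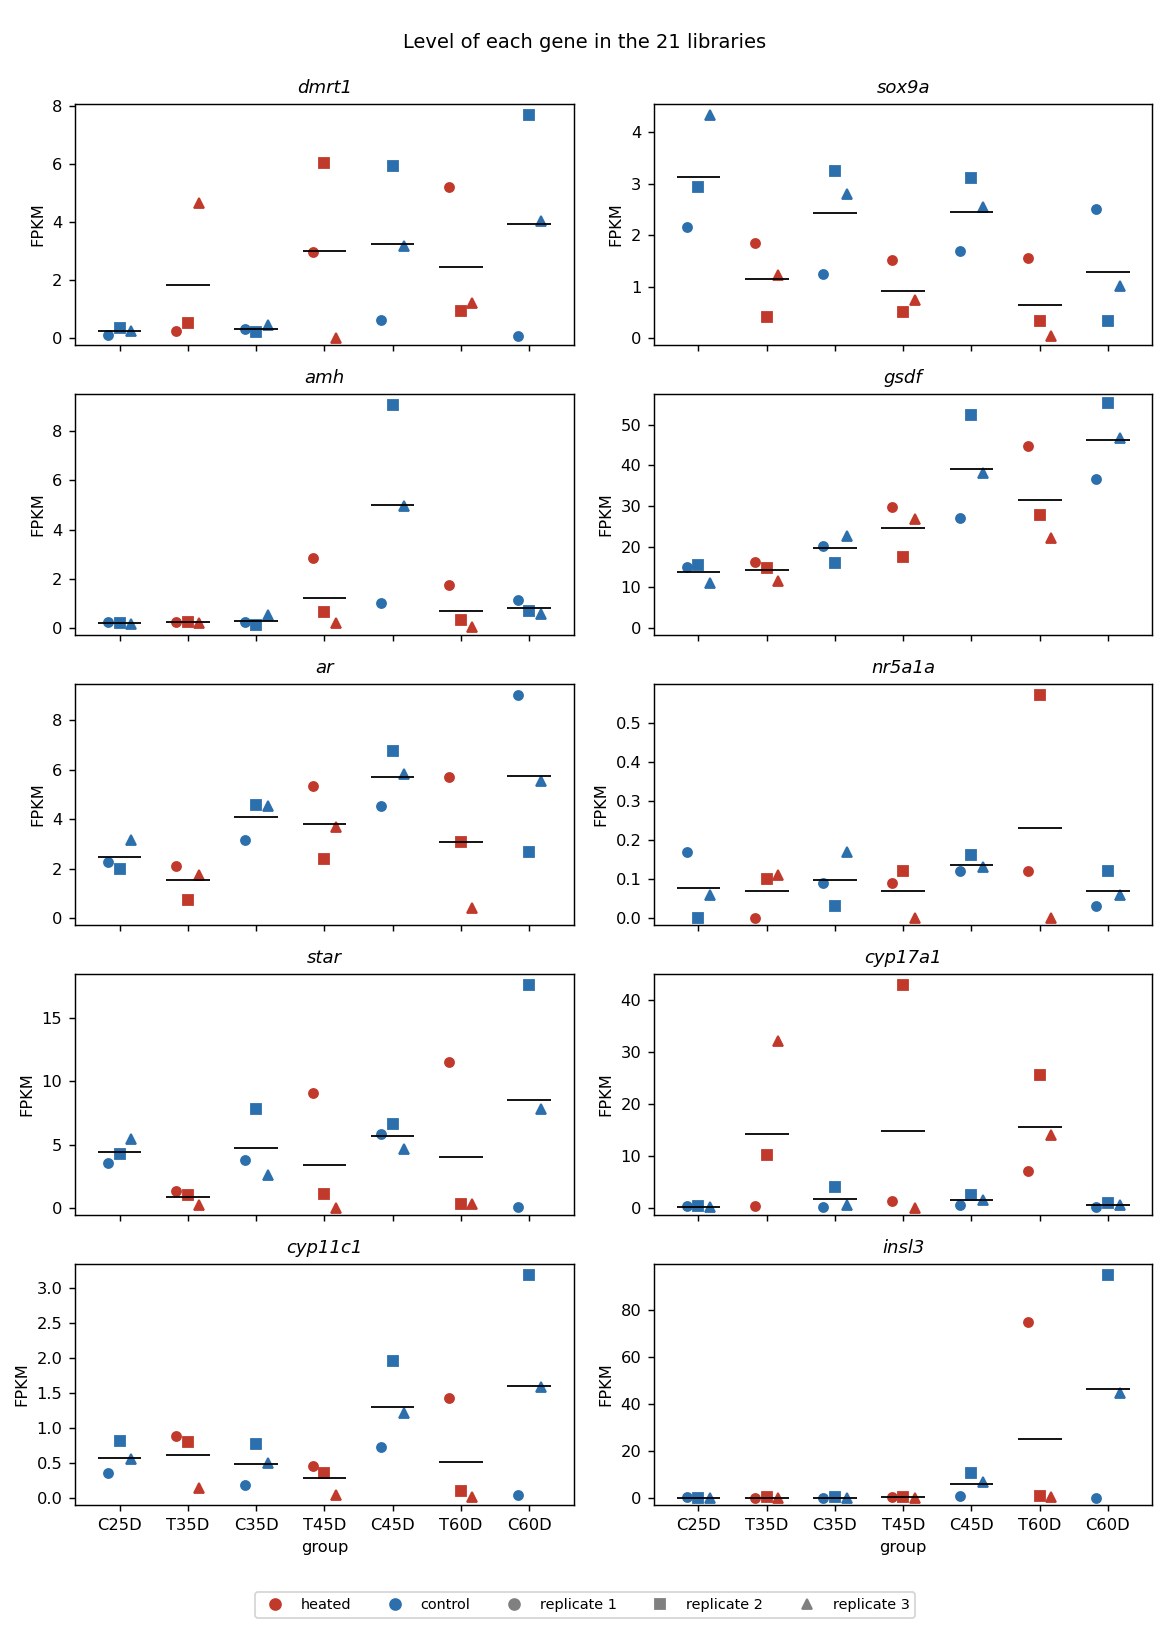
Level of each gene (FPKM, linear scale, one panel per gene) in the 7 groups; points are libraries, with shapes for replicates, and lines are group means of n = 3. For insl3, 16 libraries lie under 1 FPKM and 5 lie between 6.69 and 94.6 FPKM.

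The first question was whether the heat left these genes at another level than in control fish of the same age. edgeR's quasi-likelihood test was run on all genes of the table with enough counts, and a gene was called at a Benjamini-Hochberg adjusted p of 0.05 or less. Of the 10 genes, 7 could be tested at 35 dpf, 9 at 45 dpf and 9 at 60 dpf. At each age the test called 0 of the 10, and 0% of all genes. At an unadjusted p of 0.05 or less, the test marked 4 of 7 at 35 dpf, where 24.1% of all genes were marked. Of these, 2 were higher, beside 15.8% of all genes, and 2 lower, beside 8.33% of all genes. It marked 2 of 9 at 45 dpf, beside 15.8% of all genes, and both were lower, as were 10.5% of all genes. It marked 1 of 9 at 60 dpf, beside 25.6% of all genes, and this one was higher, as were 16.1% of all genes. DESeq2, with its adjusted p, called 2 of the 10 (star lower, cyp17a1 higher) at 35 dpf against 8.44% of all genes, 1 (insl3, lower) at 45 dpf against 3.16%, and 1 (cyp17a1, higher) at 60 dpf against 15%. Without C45D-3, DESeq2 called none of the 10 at 45 dpf and 8 of all genes, and without C60D-3 it still called cyp17a1 at 60 dpf, among 956 of all genes. The median log2 fold change of the genes tested was -0.31 at 35 dpf, -0.25 at 45 dpf and -0.95 at 60 dpf, beside 0.27, 0.12 and -0.02 over all genes. At 60 dpf the groups also differed in tissue content. All C60D libraries and T60D-2 had low liver and lens sums, as given above. T60D-1 and T60D-3 had liver sums of 37310 and 18230 FPKM and lens sums of 1438 and 308 FPKM. At 35 dpf the liver sums were 3909 to 23100 FPKM in T35D and 36090 to 44060 FPKM in C35D. At 45 dpf the lens sums were 1.11 to 840.5 FPKM in T45D and 1675 to 2221 FPKM in C45D. The sums of 7 brain genes were there 147.8 to 164.8 FPKM in T45D and 402.3 to 416.2 FPKM in C45D. The lens and brain sums overlapped at 35 dpf, and the liver sums at 45 dpf. Heat and tissue content cannot be fully told apart at any of these ages, and the part of this content was not tested.

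**Figure D3:**
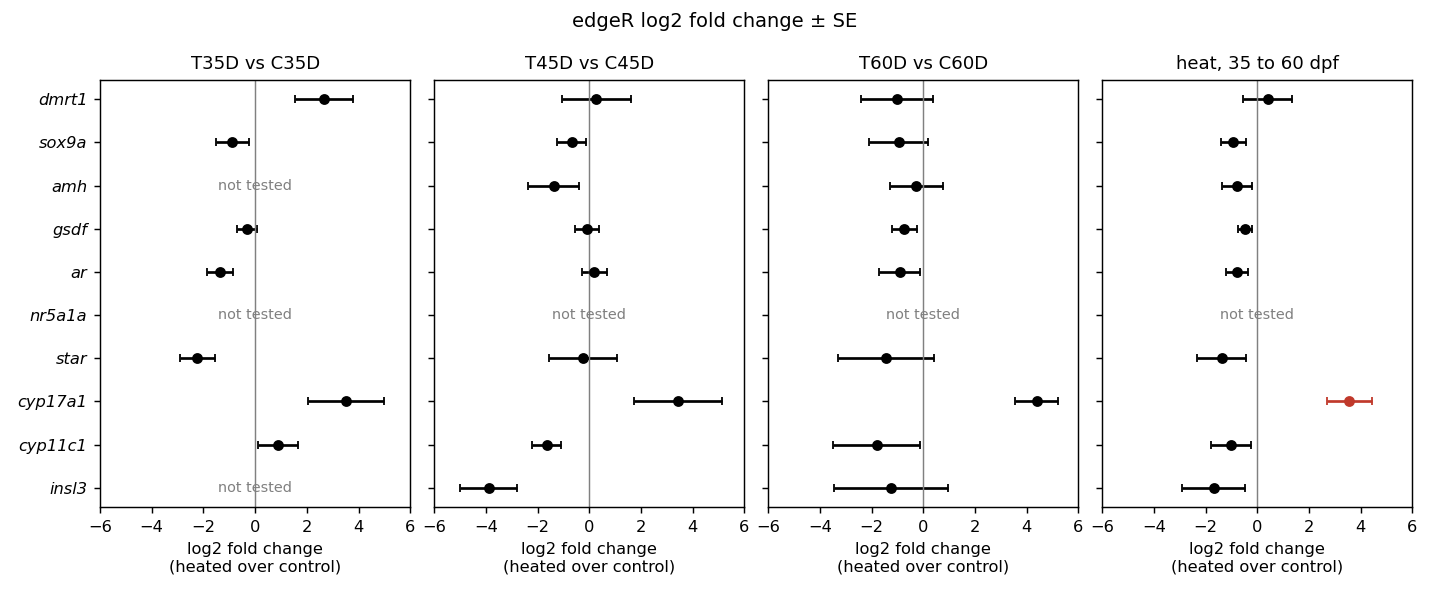
edgeR log2 fold change of heated over control fish (x axis) with its standard error (bars) for each gene at 35, 45 and 60 dpf and, in the last panel, for heat over the 3 ages with age as a term. Black points did not pass the threshold, and cyp17a1 in the last panel, at 3.56, is the red one that did.

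A mean heat effect over 35, 45 and 60 dpf, fitted on 18 libraries with age as a term, called cyp17a1 higher and none of the other 8 genes that could be tested. In this fit 21.1% of all genes were called (27.9% by DESeq2, which of the 10 genes also called cyp17a1 only), so that 1 of 9 was no larger a share than that of all genes. Of all genes 15% were called higher (3336 genes) and 6.1% lower (1354 genes), but with libraries scaled by their size only, 2090 were higher and 2466 lower. The difference of the heat effect between ages was called for 0 of the 9 genes and 0% of all genes, with adjusted p from 0.627 to 0.988 for the 9. The same test marked 14.2% of all genes at an unadjusted p of 0.05 or less, and none of the 9. With DESeq2 it called 4.72% of all genes and again none of these.

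cyp17a1, which encodes the 17-hydroxylase and 17,20-lyase that turns progestogens into androgen precursors, was the one gene of the 10 that was called over the 3 ages, and it was higher in heated fish. At 35 dpf it had 0.33, 10.2 and 32.1 FPKM in T35D-1, T35D-2 and T35D-3, against 0.28, 4.09 and 0.62 FPKM in C35D-1, C35D-2 and C35D-3. At 45 dpf it had 1.30, 42.8 and 0.05 FPKM in T45D, against 0.67, 2.50 and 1.63 FPKM in C45D. The T60D libraries had 7.03, 25.6 and 14.0 FPKM, against 0.23, 0.99 and 0.66 FPKM in C60D. The groups overlapped at 35 and 45 dpf, and at 60 dpf every heated library was above every control library, a separation in this direction that 12.7% of all genes showed. The part of liver and lens content in this separation was not tested. Over 5 FPKM were reached in 6 of the 9 heated libraries and in 0 of the 12 control libraries. Here and in such counts below, the 12 include C25D, which has no heated group of its age, and the near-mixes C45D-3 and C60D-3. The cut-offs in such counts were set by hand for each gene. Here C35D-2, at 4.09 FPKM, lay just under it. The share of all genes with such a split was not computed, and these counts were not tested.

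The log2 fold change of cyp17a1 was 3.53 ± 1.48 (SE) at 35 dpf, with an adjusted p of 0.204 by edgeR and 0.0421 by DESeq2. With 1 library of 35 dpf left out it ran from 2.09 without T35D-3, with 0.425, to 5.04 without C35D-2, with 0.290. It passed the threshold only without T35D-1, at 3.92 and 0.0298, in a fit that called 6642 of all genes in place of 0. At 45 dpf it was 3.43 ± 1.71, with 0.360 by edgeR and 0.148 by DESeq2. This value rested on T45D-2, and without that library it was -0.54. At 60 dpf it was 4.39 ± 0.84, with 0.145 by edgeR and 7.61e-06 by DESeq2, and 0.0125 by edgeR without T60D-1, in a fit that called 6293 of all genes in place of 0. Without C60D-3 the value at 60 dpf was 4.29 with an adjusted p of 0.433 by edgeR and 0.00199 by DESeq2, and without C45D-3 the value at 45 dpf was 3.47 with 0.727. Over the 3 ages it was 3.56 ± 0.89, with an adjusted p of 0.0174 by edgeR and 4.52e-05 by DESeq2. The edgeR call was lost without T45D-2, at 2.90 and an adjusted p of 0.0882. It was also lost when C45D-3 and C60D-3 were left out together, at 3.74 and 0.0535 (0.000892 by DESeq2), and when only 35 and 45 dpf were used without T45D-3, at 3.77 and 0.0548.

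The level of cyp17a1 moved in part with that of oocyte genes and of germ cell genes of either sex. The 16 genes of an oocyte list, which holds egg coat genes and oocyte factors, summed to 17790 FPKM in T35D-2, 13000 in T35D-3, 11540 in T45D-2, 7502 in T60D-2 and 7956 in T60D-3. They summed to 498, 2131 and 77.3 FPKM in C35D-1, C35D-2 and C35D-3, and to between 1.52 and 12 FPKM in the other 13 libraries. All 16 were detected with more than 3 counts in the 5 high libraries and in C35D-2, and up to 6 of the 16 were at 0 in a library among the low ones. Over the 3 ages, 16 of 16 were called higher in heated fish, with a median log2 fold change of 7.65. The 5 libraries with sums over 5000 FPKM were 5 of the 6 in which cyp17a1 was above 5 FPKM. The other one was T60D-1, where cyp17a1 had 7.03 FPKM and the oocyte list 3.97 FPKM. Among control libraries, C35D-2 had both the highest level of cyp17a1, at 4.09 FPKM, and the highest oocyte sum, at 2131 FPKM. C35D-1 had 0.28 FPKM of cyp17a1 beside its oocyte sum of 498 FPKM. A list of 11 germ cell genes of either sex was also highest in the 5 libraries with high oocyte sums, at 151 to 467 FPKM. It had 98.5 FPKM in T60D-1, and 123 in C60D-2, where cyp17a1 was at 0.99 FPKM. Over the 3 ages edgeR called 3 of 10 tested higher (piwil2, dnd1 and nanos3), beside 15% of all genes. The parts of oocytes and of other germ cells in the result for cyp17a1 were not tested.

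**Figure D4:**
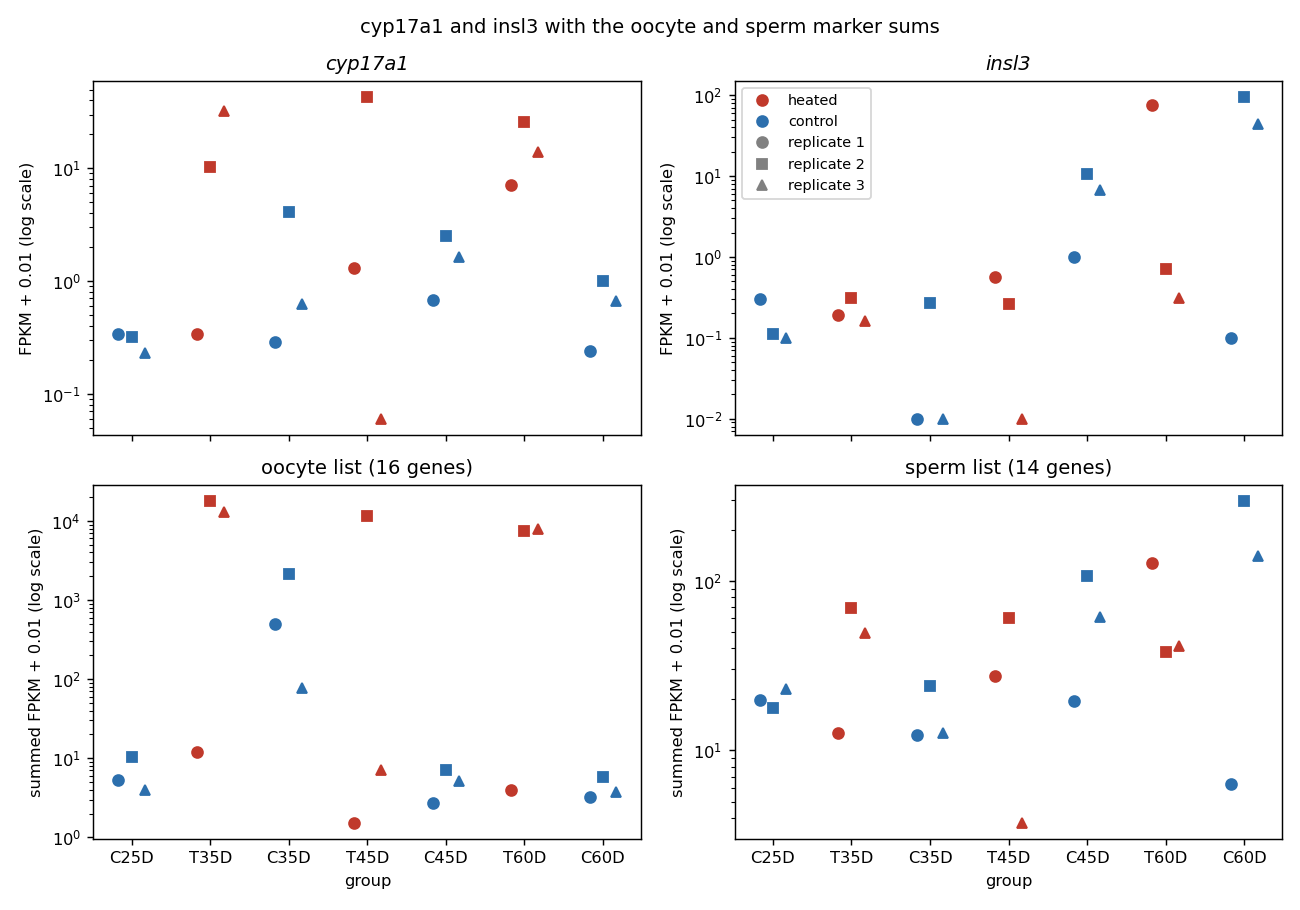
Level of cyp17a1 and insl3 (top, FPKM + 0.01) and summed level of the oocyte and sperm lists (bottom, summed FPKM + 0.01) in each library, on log scales. T60D-1 has 7.03 FPKM of cyp17a1 and 74.8 of insl3 with an oocyte sum of 3.97, while the other 5 libraries above 5 FPKM of cyp17a1 have oocyte sums from 7502 to 17790.

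The level of star, a gene of cholesterol transfer, was by contrast lower in heated libraries at the end of the heat. star had 1.31, 1.02 and 0.27 FPKM in T35D, against 3.78, 7.78 and 2.62 FPKM in C35D. Every heated library was below every control library, as in 14.2% of all genes at that age. Its log2 fold change was -2.25 ± 0.67 (SE), with an adjusted p of 0.192 by edgeR and 0.0279 by DESeq2. Without T35D-1 edgeR gave -2.85 and 0.0318, in the fit with 6642 calls, and without T35D-3 it gave -1.82 and 0.335.

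At the later ages the libraries of T45D, T60D and C60D differed widely in star, while those of C45D were close to each other. It had 9.07, 1.09 and 0 FPKM in T45D, against 5.81, 6.58 and 4.63 FPKM in C45D. In fish of 60 dpf it had 11.5, 0.34 and 0.28 FPKM in T60D, against 0.07, 17.6 and 7.81 FPKM in C60D. At 60 dpf both groups thus held libraries far above and far below the rest. The log2 fold changes were -0.25 ± 1.31 at 45 dpf and -1.44 ± 1.85 at 60 dpf, with adjusted p of 0.930 and 0.608. At 45 dpf the value turned to 0.38 without T45D-3 and 0.24 without T45D-2, and at 60 dpf it was -5.11 with an adjusted p of 0.118 without T60D-1. Without C45D-3 it was -0.38 at 45 dpf, and without C60D-3 -1.63 at 60 dpf. Above 2 FPKM were 2 of the 9 heated libraries and 11 of the 12 control libraries. All C25D libraries, which have no heated group of their age, were among these 11. This count was not tested.

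cyp11c1 encodes the 11-beta-hydroxylase, which is also used for cortisol in the interrenal gland. It had 0.88, 0.80 and 0.14 FPKM in T35D, against 0.18, 0.77 and 0.50 FPKM in C35D, and the groups overlapped. At 45 dpf it had 0.45, 0.35 and 0.04 FPKM in T45D, against 0.73, 1.95 and 1.21 FPKM in C45D. Every heated library was here below every control library, as in 17.6% of all genes at this age. The log2 fold change at 45 dpf was -1.64 ± 0.55 (SE), with an unadjusted p of 0.0216 and an adjusted p of 0.258 by edgeR and 0.165 by DESeq2. Without C45D-3 it was -1.74, with an adjusted p of 0.720. Its levels at 60 dpf were 1.43, 0.10 and 0.02 FPKM in T60D, against 0.04, 3.18 and 1.58 FPKM in C60D, with an adjusted p of 0.482. The high and low libraries at 60 dpf were those that were high and low for star.

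insl3 encodes a peptide hormone of Leydig cells. At 35 dpf the libraries held no more than 3 counts of it, whether heated or control, and it was not tested. At 45 dpf it had 0.55, 0.25 and 0 FPKM in T45D, against 0.98, 10.7 and 6.69 FPKM in C45D. The counts behind these values were 6, 3 and 0 in T45D and 11, 114 and 73 in C45D, for sums of 9 and 198. The heated libraries were all below the control libraries, as in 17.6% of all genes at this age, and the log2 fold change was -3.90 ± 1.10 (SE). Its adjusted p was 0.222 by edgeR and 0.0268 by DESeq2, and without C45D-3 the value was -3.78 with 0.720 by edgeR and -3.75 with 0.460 by DESeq2.

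At 60 dpf insl3 had 74.8, 0.69 and 0.30 FPKM in T60D, against 0.09, 94.6 and 44.5 FPKM in C60D. A heated library and a control library thus stood within the same range, and a low library was found on both sides. The log2 fold change was -1.24 ± 2.2, with an adjusted p of 0.710. It was 0.08 without C60D-2 and -6.87 without T60D-1, where its adjusted p was 0.0970. Above 5 FPKM were 1 of the 9 heated libraries, T60D-1, and 4 of the 12 control libraries, C45D-2, C45D-3, C60D-2 and C60D-3.

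Those 5 libraries were also the 5 in which cyp11c1 was above 1 FPKM. A list of 14 genes of spermatids and sperm summed to 128 FPKM in T60D-1, and to 107, 61.5, 295 and 139 FPKM in C45D-2, C45D-3, C60D-2 and C60D-3. It also reached 69.3 FPKM in T35D-2 and 60.2 in T45D-2, where insl3 was at 0.30 and 0.25 FPKM. In the other 14 libraries it summed to 3.74 to 49.2 FPKM. The C25D libraries, with 17.75 to 23.14 FPKM, were among these, and 10 or 11 genes of the list had more than 3 counts there. That age lies before the start of testis differentiation given in the paper. Whether the list is limited to sperm cells was not tested. All 14 genes had more than 3 counts in T60D-1 and in those 4 control libraries, and up to 4 were at 0 elsewhere. None of the 14 was called over the 3 ages, and their median log2 fold change was -0.85. The part of sperm cells in the levels of insl3 and cyp11c1 was not tested.

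dmrt1 encodes a DNA-binding protein that is needed for testis development in zebrafish. At 35 dpf it had 0.26, 0.53 and 4.64 FPKM in T35D, against 0.30, 0.22 and 0.44 FPKM in C35D. The heated mean of 1.81 ± 2.46 FPKM (SD, n = 3), beside 0.32 ± 0.11 FPKM in C35D, came from T35D-3. For dmrt1 the log2 fold change was 2.66 ± 1.13 (SE), with an adjusted p of 0.205 by edgeR and 0.0824 by DESeq2, and was 0.40 without T35D-3.

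At 45 dpf dmrt1 had 2.98, 6.01 and 0 FPKM in T45D, against 0.61, 5.94 and 3.18 FPKM in C45D. By 60 dpf it had 5.21, 0.92 and 1.22 FPKM in T60D, against 0.06, 7.67 and 4.04 FPKM in C60D. The groups overlapped at both ages, with log2 fold changes of 0.27 ± 1.34 and -1.02 ± 1.39 and adjusted p of 0.925 and 0.631. Levels over 2 FPKM were found in 4 of the 9 heated libraries and 4 of the 12 control libraries, and those 4 control libraries were the ones with insl3 over 5 FPKM. Of the 4 heated libraries, only T60D-1 was high for insl3.

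sox9a encodes a transcription factor that acts in Sertoli cells and in cartilage. It had 1.85, 0.40 and 1.22 FPKM in T35D, against 1.24, 3.24 and 2.80 FPKM in C35D. It had 1.52, 0.50 and 0.73 FPKM in T45D, against 1.70, 3.11 and 2.54 FPKM in C45D. It had 1.55, 0.34 and 0.04 FPKM in T60D, against 2.50, 0.34 and 1.02 FPKM in C60D. The mean was lower in heated fish at each age, but the difference did not pass the test. The log2 fold changes were -0.89 ± 0.63, -0.68 ± 0.57 and -0.95 ± 1.13 (SE), with adjusted p of 0.391, 0.539 and 0.581, and over the 3 ages -0.92 ± 0.50 with 0.194. At 60 dpf the value was -2.67 without T60D-1 and -0.21 without C60D-1. A list of 12 cartilage genes summed to 24.1 to 219 FPKM in T35D and 56.9 to 244 in C35D, to 21.5 to 33.1 in T45D and 51.6 to 79.2 in C45D, and to 6.94 to 23.9 in T60D and 15.0 to 31.5 in C60D. None of the 12 was called over the 3 ages, all 12 had a log2 fold change under 0, and the part of cartilage in the level of sox9a was not tested.

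nr5a1a encodes a nuclear receptor related to mammalian SF-1, which drives steroid synthesis genes. Its highest level was 0.57 FPKM, from 21 counts in T60D-2, and every other library held 6 counts or fewer. It did not pass edgeR's filter on low counts in the 7 tests. DESeq2, which has another filter, gave it a log2 fold change of 0.16 over the 3 ages with an adjusted p of 0.899, and at these counts a difference was not detectable. The group sums were 7 counts in T35D against 10 in C35D, 6 in T45D against 12 in C45D, and 25 in T60D against 7 in C60D.

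amh encodes anti-Müllerian hormone, a Sertoli cell ligand of the TGF-beta family. At 35 dpf it had 0.25, 0.25 and 0.21 FPKM in T35D, against 0.24, 0.14 and 0.53 FPKM in C35D, and was not tested. At 45 dpf it had 2.84, 0.64 and 0.20 FPKM in T45D, against 1.00, 9.06 and 4.97 FPKM in C45D. The groups overlapped through T45D-1 and C45D-1, and the log2 fold change was -1.37 ± 0.99 (SE) with an adjusted p of 0.481. By 60 dpf it had 1.73, 0.32 and 0.06 FPKM in T60D, against 1.15, 0.70 and 0.59 FPKM in C60D, with -0.27 ± 1.03 and 0.869. Without C60D-3 the value at 60 dpf was -0.49, and without C45D-3 that at 45 dpf was -1.32.

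gsdf encodes gonadal soma derived factor, another TGF-beta family ligand, made by the somatic cells around germ cells in testis and ovary. At 35 dpf it had 16.2, 14.8 and 11.7 FPKM in T35D, against 20.2, 16.1 and 22.6 FPKM in C35D. At 45 dpf it had 29.6, 17.5 and 26.9 FPKM in T45D, against 27.0, 52.2 and 38.0 FPKM in C45D. By 60 dpf it had 44.7, 27.8 and 22.1 FPKM in T60D, against 36.7, 55.3 and 46.7 FPKM in C60D. The groups touched at each age, and the log2 fold changes of -0.31 ± 0.39, -0.08 ± 0.47 and -0.74 ± 0.48 (SE) had adjusted p of 0.622, 0.941 and 0.338. The value at 45 dpf was close to that of all genes, 0.12, and FPKM means of 24.7 ± 6.39 in T45D and 39.1 ± 12.6 in C45D (SD, n = 3 each) were further apart than the TMM-scaled value. With libraries scaled by size only, gsdf was at -0.83 and the median of all genes at -0.43. In T45D-3 and C60D-1, with 26.9 and 36.7 FPKM of gsdf, the germ cell genes summed to only 1.38 and 3.08 FPKM. In C60D-2, where gsdf was highest, they summed to 123 FPKM. pvalb4, a gene of the muscle list, was among the 5 genes most like gsdf, at a Pearson correlation of log2 CPM of 0.90. No other gene of the muscle list was among these 5, but myhc4, a myosin heavy chain gene outside that list, was, at 0.91. The sum of the 9 muscle genes was 240800 FPKM in T45D-3, 95960 in C60D-1 and 193600 in C60D-2. The part of muscle and other tissues in the level of gsdf was not tested.

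ar encodes the androgen receptor, a nuclear receptor that is present in many tissues. At 35 dpf it had 2.11, 0.73 and 1.73 FPKM in T35D, against 3.16, 4.56 and 4.55 FPKM in C35D. No heated library reached the lowest control library, as in 14.2% of all genes at this age. Its log2 fold change was -1.36 ± 0.50 (SE), with an unadjusted p of 0.0284 and an adjusted p of 0.193 by edgeR and 0.119 by DESeq2. With 1 library left out it ran from -1.84 to -0.99. The first was without T35D-1, with an adjusted p of 0.0387 in the fit with 6642 calls, and the second without T35D-2, with 0.439.

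At 45 dpf ar had 5.36, 2.39 and 3.69 FPKM in T45D, against 4.55, 6.78 and 5.83 FPKM in C45D. At 60 dpf it had 5.70, 3.08 and 0.42 FPKM in T60D, against 9.04, 2.69 and 5.56 FPKM in C60D. The groups overlapped at both ages. The log2 fold change at 45 dpf was 0.20 ± 0.47 under TMM scaling and -0.54 with libraries scaled by size only, where the medians of all genes were 0.12 and -0.43. At 60 dpf it was -0.92 ± 0.81, with an adjusted p of 0.463. Without C45D-3 and C60D-3, the values of gsdf, sox9a and ar were -0.06, -0.64 and 0.22 at 45 dpf and -0.83, -1.07 and -0.94 at 60 dpf, with adjusted p of 0.532 or more.

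The second question was how these genes moved with age. In control fish from 25 to 60 dpf, edgeR called 5 of the 9 genes tested (amh, ar, insl3, gsdf and dmrt1), beside 50% of all genes. DESeq2 called the same 5, beside 50.6% of all genes. These 4 ages hold libraries with and without liver and lens transcripts, and the part of this in the result was not tested. insl3 had group means of 0.16, 0.09, 6.13 and 46.4 FPKM at 25, 35, 45 and 60 dpf, with an adjusted p of 0.00255. Its log2 fold change from 25 dpf was 5.14 at 45 dpf and 8.77 at 60 dpf, although C60D-1 had only 0.09 FPKM. The C25D libraries held 5 counts of insl3 in all, so that the fold rests on few counts.

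amh had means of 0.20, 0.30, 5.01 and 0.81 FPKM at 25, 35, 45 and 60 dpf, with an adjusted p of 0.00124. It was thus highest at 45 dpf, with a log2 fold change from 25 dpf of 4.49, and 2.11 lower on the log2 scale at 60 dpf than at 45 dpf. gsdf had means of 13.9, 19.6, 39.1 and 46.2 FPKM, with an adjusted p of 0.00277 and a log2 fold change of 2.32 from 25 to 60 dpf. ar had means of 2.47, 4.09, 5.72 and 5.76 FPKM, with 0.00227 and a log2 fold change of 1.61.

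dmrt1 had means of 0.24, 0.32, 3.24 and 3.92 FPKM, with an adjusted p of 0.0201 and log2 fold changes from 25 dpf of 3.73 at 45 dpf and 4.70 at 60 dpf. This call was lost without C25D-1, at 0.0525, without C25D-3, at 0.0515, and when C45D-3 and C60D-3 were both left out, at 0.0791 (0.00367 by DESeq2). The other 4 calls held under each of these changes. star, cyp11c1 and sox9a were not called, with adjusted p of 0.402, 0.284 and 0.323, but were called without C60D-1, at 0.00540, 0.0139 and 0.0417. That fit leaves C60D-2 and C60D-3 at 60 dpf, and C60D-3 lay close to a mix that holds C60D-2. These libraries cannot be taken as independent, so no conclusion is drawn from the 3 gained calls. Fits of the control ages with 1 library left out called 8193 to 11326 of all genes. cyp17a1, at 0.115, was called without C35D-1, at 0.0489, or without C35D-2, at 0.0452.

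Other genes of the pathway were read across control ages from 2 lists of genes with known roles. Of the other genes of testis differentiation, Sertoli and Leydig cells and their receptors, 20 were tested and 13 were called by edgeR, beside 50% of all genes. They were the transcription factor genes sox8b, wt1a, wt1b, gata6, nr0b1, nr5a2, lhx9, emx2 and tcf21, the ligand gene dhh and the receptor genes bmpr1bb, lhcgr and rxfp2a. nr0b1, an inhibitor of nr5a1 proteins, had 5.97, 3.74 and 6.44 FPKM in C25D and 0.18, 0 and 0.18 FPKM in C60D. Its adjusted p was 0.000275, and 0.00712 without C45D-3 and C60D-3. It was also low in T45D-3 and T60D-2, at 0.26 and 0.44 FPKM, which like C60D had low liver sums. Every other library had 1.03 FPKM or more. The part of liver in the level of nr0b1 was not tested. lhcgr, the receptor for luteinizing hormone on Leydig cells, had 0.17, 0.13 and 0.29 FPKM in C25D and 0.72, 0.16 and 0.63 FPKM in C60D. Its adjusted p was 0.0202, a call that was lost at 0.140 without C45D-3 and C60D-3. In that fit 25% of all genes were called, and of this list 6 of 21, all of them among the 13, namely wt1b, gata6, nr0b1, nr5a2, lhx9 and emx2.

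Of the other genes of steroid synthesis and inactivation, 15 were tested across control ages and 11 were called, beside the same 50% of all genes, namely cyp11a1, cyp19a1b, fdx1, fdxr, hsd11b2, hsd17b3, hsd20b2, hsd3b1, srd5a1, srd5a2a and srd5a2b. hsd3b1, of the 3-beta-hydroxysteroid dehydrogenase family, had 0.11, 0.29 and 0.23 FPKM in C25D and 2.13, 2.29 and 2.45 FPKM in C60D, with an adjusted p of 0.000770, and 0.0133 without C45D-3 and C60D-3. In that fit 5 of the 15 were called, hsd3b1, hsd20b2, srd5a2b, fdx1 and cyp19a1b. Across the same ages, all 7 liver, all 9 lens, all 7 brain and all 12 oocyte genes tested were called, as were 11 of 12 cartilage, 9 of 13 sperm, 5 of 9 muscle and 3 of 9 germ cell genes. Without C45D-3 and C60D-3 the calls were 7 of 7 liver, 3 of 9 lens, 5 of 7 brain, 12 of 13 oocyte, 8 of 12 cartilage, 3 of 13 sperm, 2 of 9 muscle and 1 of 9 germ cell genes. The oocyte list summed to 77.3 to 2131 FPKM in C35D, and to 10.5 FPKM or less in each library of the other control groups. Its genes thus passed the filter on low counts mainly through C35D, and no conclusion is drawn from their calls. The part of the tissues of these lists in the changes with age was not tested.

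In heated fish at 35, 45 and 60 dpf, none of the 8 genes tested was called, with adjusted p of 0.983 or more by edgeR, and 0% of all genes were called. At an unadjusted p of 0.05 or less, 2.92% of all genes were marked and none of the 8, and DESeq2 called 0.155% of all genes and none of these 8. gsdf had means of 14.2, 24.7 and 31.5 FPKM in T35D, T45D and T60D. cyp17a1 had 14.2 ± 16.2, 14.7 ± 24.3 and 15.5 ± 9.37 FPKM (SD, n = 3 each).

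The same lists were read for heat. Of 25 other genes of testis differentiation, 22 were tested over the 3 ages, and 1 was called higher and 2 lower in heated fish, where 15% of all genes were called higher and 6.1% lower. The median log2 fold change was -0.10, beside -0.03 over all genes. The one called higher was cbx2, a Polycomb group gene needed for male development in mammals, at 2.03 ± 0.55 (SE) and an adjusted p of 0.0201. It had 30.6, 25.4, 19.6, 14.9 and 13.5 FPKM in T35D-2, T35D-3, T45D-2, T60D-2 and T60D-3, the 5 libraries with high oocyte sums, and at most 5.85 FPKM in the other 16. sox9b, the second zebrafish copy of sox9, was called lower at -1.36 ± 0.38 and 0.0227. It had 1.78, 0.71 and 2.95 FPKM in T35D, against 3.54, 5.25 and 4.43 FPKM in C35D. It had 2.85, 1.64 and 2.02 FPKM in T45D, against 5.56, 6.06 and 6.11 FPKM in C45D, and 2.58, 2.09 and 0.83 FPKM in T60D, against 13.3, 1.31 and 7.35 FPKM in C60D. At 35 and 45 dpf the groups of sox9b did not overlap, as in 14.2% and 17.6% of all genes in this direction. fgf24, a fibroblast growth factor needed for early gonad development in zebrafish, was also called lower, at -1.03 ± 0.31 and 0.0306. These calls are edgeR's. DESeq2 called 2 higher and 2 lower of 24, beside 27.9% of all genes in both directions, with tcf21 as the added gene, higher at an adjusted p of 0.0415.

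Within single ages, these regulators gave 0 calls by edgeR. At an unadjusted p of 0.05 or less, 2 were higher and 3 lower of 17 tested at 35 dpf, 0 and 2 of 16 at 45 dpf, and 1 and 1 of 13 at 60 dpf, beside 24.1%, 15.8% and 25.6% of all genes in both directions. Among receptors, rxfp2a, a receptor related to the mammalian receptor for INSL3, had 3.94 to 12.05 FPKM over the 21 libraries, and its copy rxfp2b had 0 to 2.43 FPKM. bmpr1bb, a type I receptor of bone morphogenetic proteins, had 0.70 to 3.91 FPKM. None of these 3 was called for heat over the 3 ages. Other receptors and partners of the 10 genes were sparse. lhcgr had at most 0.72 FPKM, and fshr, the receptor for follicle-stimulating hormone, at most 0.10 FPKM. nr5a1b, the partner copy of nr5a1a, was also at 0.10 FPKM or lower. wt1a and gata4, transcription factor genes of the early gonad, had at most 0.72 and 0.85 FPKM. nr0b1 had 5.00, 1.03 and 1.93 FPKM in T35D, against 2.94, 6.86 and 6.93 FPKM in C35D, with an adjusted p of 0.370.

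Of 20 other genes of steroid synthesis and inactivation, 18 were tested over the 3 ages by edgeR. Of these 4 were called higher and 0 lower in heated fish, beside the same 15% and 6.1% of all genes, with a median log2 fold change of 0.17. DESeq2 called 6 higher and 1 lower of 20, beside 27.9% of all genes in both directions. Its added calls were hsd17b1 and cyp17a2, higher, and srd5a1, lower, with adjusted p of 0.0122, 0.0424 and 0.0314. hsd3b2, of the same family as hsd3b1, had 0, 36.6 and 68.8 FPKM in T35D, against 0.28, 5.31 and 0.27 FPKM in C35D. It had 0, 55.6 and 0 FPKM in T45D, against 0, 0.06 and 0.06 FPKM in C45D, and 0.12, 36.6 and 57.5 FPKM in T60D, against 0, 0.17 and 0.06 FPKM in C60D. Its log2 fold change over the 3 ages was 6.56 ± 1.61 (SE), with an adjusted p of 0.0173.

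cyp11a1, which cleaves the side chain of cholesterol, had 0.11, 67.9 and 159 FPKM in T35D, against 0.83, 15.0 and 0.35 FPKM in C35D. It had 0.26, 154 and 0.10 FPKM in T45D, against 0.22, 0.26 and 0.52 FPKM in C45D, and 0.60, 112 and 92.2 FPKM in T60D, against 0.11, 1.05 and 0.41 FPKM in C60D. Its log2 fold change was 5.95 ± 1.5, with 0.0178. fdx1, a ferredoxin that passes electrons to mitochondrial P450 enzymes, and stard3, a cholesterol transfer gene related to star, were called at 1.08 ± 0.32 and 1.04 ± 0.31, with 0.0269 and 0.0278. For hsd3b2 and cyp11a1, the 5 heated libraries with high oocyte sums held the 5 highest values, with C35D-2 next. T60D-1, whose cyp17a1 level was 7.03 FPKM, had 0.12 FPKM of hsd3b2 and 0.60 FPKM of cyp11a1.

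Each of the edgeR calls over the 3 ages in both lists, and all 16 in the oocyte list, was lost under the same changes that cost cyp17a1 its edgeR call. The adjusted p of hsd3b2 was 0.0679 without T45D-2 and 0.0535 when C45D-3 and C60D-3 were both left out, and those of cyp11a1 were 0.0902 and 0.0550. Within single ages, the steroid genes gave 0 calls by edgeR. At an unadjusted p of 0.05 or less, 2 were higher and 1 lower of 14 at 35 dpf, 0 and 1 of 13 at 45 dpf, and 3 and 2 of 16 at 60 dpf, beside the same 24.1%, 15.8% and 25.6% of all genes.

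The last steps of androgen synthesis were measured as well. hsd17b3, which makes testosterone from androstenedione, had 10.1, 1.34 and 1.30 FPKM in T60D, against 0.98, 1.19 and 1.01 FPKM in C60D, with the high value in T60D-1. Its log2 fold change at 60 dpf was 1.87 ± 0.93 (SE), with an adjusted p of 0.241. hsd11b2, which oxidizes the 11-hydroxyl group, had 22.9, 3.48 and 3.59 FPKM in T60D, against 6.66, 9.88 and 8.50 FPKM in C60D, and T60D-1 was again the highest. hsd3b1, cyp17a2 and hsd17b1 had at most 3.54, 1.73 and 2.75 FPKM. On the estrogen side, cyp19a1a, the gonadal aromatase, had at most 1.13 FPKM, in T60D-3, and foxl2a, its activator, at most 1.72 FPKM, in C35D-2. cyp11a2 was not matched in the table.

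Markers of the interrenal gland were low. Its 5 measured genes summed to 0.58 to 3.72 FPKM in T35D and 0.96 to 2.79 in C35D, to 0.06 to 3.48 in T45D and 1.40 to 2.82 in C45D, and to 4.66 to 5.47 in T60D and 2.22 to 4.04 in C60D. Up to 4 of the 5 were at 0 in a library. The part of this gland in the levels of star and cyp11c1 was not tested. Germ cell genes of either sex, 11 in all, summed to 1.38 to 467 FPKM, 6 ovarian somatic genes to 3.35 to 13.6 FPKM, 7 brain genes to 54.8 to 701 FPKM and 9 muscle genes to 46020 to 240800 FPKM, the highest in T45D-3. In that library dmrt1, star, insl3 and nr5a1a were at 0, cyp17a1 was at 0.05 FPKM and cyp11c1 at 0.04 FPKM, while gsdf was at 26.9 and ar at 3.69 FPKM.

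Among themselves, the genes moved together only in part. Of 36 pairs among the 9 genes other than nr5a1a, 27 had a Pearson correlation of log2 CPM above 0 over the 21 libraries, and 3 had one above 0.7. These were star with cyp11c1 at 0.77, amh with gsdf at 0.71, and dmrt1 with insl3 at 0.71. sox9a and cyp17a1 had -0.63. The points share groups, ages and library makeup, so these values are descriptions. insl3 had 3 counts or fewer in 12 of the 21 libraries. Its correlations thus rest mainly on the libraries where it was above 5 FPKM, with the near-mixes C45D-3 and C60D-3 among them. In 3 libraries at 60 dpf, T60D-1, C60D-2 and C60D-3, dmrt1, star, cyp11c1 and insl3 were all higher than in T60D-2, T60D-3 and C60D-1.

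Over the 21 libraries and 21421 genes, the genes whose log2 CPM was most like that of each member were listed by Pearson correlation. For dmrt1 they were dnah5 at 0.92 and spata22 at 0.90, while insl3 correlated with klhl10b.2 at 0.94. star correlated with capslb at 0.91. For cyp11c1 they were ccdc88aa at 0.96 and prelid1b at 0.95. For cyp17a1 they were tdrd6b and si:ch211-188c16.1, both at 0.95. For sox9a they were LOC101886810 and plcl2, both at 0.95, and for ar klf5a at 0.97 and si:ch211-125o16.4 at 0.96. For amh they were cdc42bpaa at 0.83 and si:ch211-163c2.3 at 0.82, and for gsdf asb14a at 0.93 and si:ch211-151h10.2 at 0.91. Among the matches given, those of amh were the weakest. nr5a1a had too few counts for such a search, and the match of insl3 rests mainly on the few libraries where it was high.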

How the data were processed

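RNA of 7 groups, 3 libraries each and all labelled as whole fish, was sequenced in single-end reads on the BGISEQ-500. The authors cleaned the reads (SOAPnuke) and aligned them to the reference coding genes of GRCz11 (Bowtie2 2.2.5), and RSEM 1.2.12 then gave each gene an expected count. The deposited expected counts are not normalized, and 10.6% of them are not whole. The authors also deposited FPKM values, scaled by gene length and library size. Printed levels are these FPKM values, which entered no test. The submitters' processing notes also name HISAT2 2.0.4 and DESeq2 1.4.5.

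The titles of the libraries gave their groups and replicate numbers. Symbols were matched by NCBI Gene number, for 24087 of 26225 genes, to a RefSeq table of the assembly GRCz12tu. No coordinates are given, since that assembly is not the one the files use. Reads of near-identical gene copies may be split by the counting.

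Expected counts were rounded to whole numbers and fitted with edgeR 4.0.16 in R 4.3.3 (quasi-likelihood test, TMM scaling, edgeR's filter on low counts, Benjamini-Hochberg adjustment over all genes tested, threshold 0.05). The 7 tests were heated against control at 35, 45 and 60 dpf (6 libraries each), heat over the 3 ages with age as a term and the difference of the heat effect between ages (18 libraries each), ages in control fish (12 libraries) and ages in heated fish (9 libraries). p-values measure the spread between the libraries of a group, which the study's methods call independent biological replicates, although C45D-3 and C60D-3 lay close to mixes of their group mates. Replicate numbers were not taken to pair libraries. Deviations from the group means correlated, on average over the same-numbered libraries, at -0.06 at 35 dpf, -0.09 at 45 dpf and -0.19 at 60 dpf. Single values ran from -0.382 to 0.375 at 35 dpf, and with 3 values per age they cannot show whether same-numbered libraries shared a tank or batch.

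The best mix of the 2 other libraries of a group was fitted for each library over genes with a mean of at least 50 counts. Likeness was taken over log2 CPM with a prior count of 0.5, among genes with at least 1 CPM in 3 libraries. Alternatives were DESeq2 1.42.0, its size factors, library size only, no filter, at least 10 counts in every library, a replicate block, one fit of all 21 libraries and leaving out each library. Leaving out C45D-3 with C60D-3, the same with DESeq2, using only 35 and 45 dpf without T45D-3, and leaving out libraries in the tests across ages were chosen after seeing the data. FPKM cut-offs in counts of libraries were set by hand, with no rule stated beforehand.

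The genes, lists and tests were chosen with earlier results of these data known. Named are the 10 genes, genes with a set place in the pathway, list genes past the threshold, and the 2 genes most like each of the 10, of which those for insl3 and star are not all reported here. Marker genes called across control ages are given as counts.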

Additional observations from a re-analysis of the deposited data

How the results depend on the processing

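edgeR's counts of called genes depended strongly on tool and libraries. DESeq2 called 1671 genes at 35 dpf, 666 at 45 dpf, 3176 at 60 dpf, 1066 for the difference between ages and 36 across ages in heated fish, where edgeR called 0 each time. In 1 fit of all 21 libraries, edgeR called 1 at 35 dpf and 3163 at 60 dpf, and with library size only 9 at 60 dpf. Leaving out 1 library gave 0 to 6642 at 35 dpf (highest without T35D-1), 0 to 1667 at 45 dpf (without T45D-2), 0 to 6293 at 60 dpf (without T60D-1), 21 to 6955 over the 3 ages (lowest without T45D-2), 0 to 59 for the difference between ages, 8193 to 11326 across control ages and 0 to 0 across heated ages. Over the 3 ages, 4690 became 2 without C45D-3 and C60D-3 and 5 at 35 and 45 dpf without T45D-3, and 10827 across control ages became 5509 without C45D-3 and C60D-3. Without the same libraries, DESeq2 called 8 genes at 45 dpf, 956 at 60 dpf, 4867 over the 3 ages and 8498 across control ages.

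With a replicate block, although the numbers are not known to pair libraries, 2 genes were called over the 3 ages, cyp17a1 had 2.88 with an adjusted p of 0.0901, and dmrt1 at 45 dpf turned to -0.15. At 45 dpf, gsdf turned to 0.027 with DESeq2, 0.033 with DESeq2 without C45D-3 and 0.014 with its size factors, and ar to -0.54 with library size only, which moved the median of all genes by -0.54 at 45 dpf, -0.17 at 35 dpf and 0.20 at 60 dpf.

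With 1 library left out, the log2 fold change at 45 dpf ran from -0.45 to 0.94 for dmrt1, -0.34 to 0.26 for gsdf, -2.94 to 0.38 for star, -0.54 to 4.12 for cyp17a1 and -0.047 to 0.58 for ar. At 60 dpf it ran from -2.19 to 0.17 for dmrt1, -6.87 to 0.080 for insl3 and -2.12 to 0.32 for amh, and over the 3 ages from -0.31 to 1.06 for dmrt1. Of the log2 fold changes of the 10 genes at single ages and over the 3 ages under an alternative, 531 kept direction and side of the threshold, 9 passed it, 4 lost it and 18 turned. Only cyp17a1 over the 3 ages was called in the main edgeR fits behind these numbers. All 4 losses were of that call, and the other results had no call to lose. The tests across ages, which have no single fold change, are not in these numbers. Among them dmrt1 lost its control-age call, and star, cyp11c1, sox9a and cyp17a1 gained one, when certain libraries were left out, as given above.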

Other observations

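Of 11 genes of the pituitary axis (gonadotropins, their releasing hormones and kisspeptins), 1 was tested over the 3 ages and none was called by edgeR. Their summed level was 3.11 to 9.62 FPKM in T35D and 0.90 to 4.5 FPKM in C35D, 0.19 to 3.08 FPKM in T45D and 1.18 to 2.15 FPKM in C45D, and 1.89 to 3.85 FPKM in T60D and 0.38 to 1.17 FPKM in C60D. At 60 dpf the heated sums were all above the control sums, and 12.7% of single genes separated in this direction. No gene of the list had more than 3 counts in a C60D library, and 2 or 3 had in each T60D library. These sums thus lie near the limit of measurement. None of the 11 genes could be tested at 60 dpf, and this separation was not tested.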
